A study of Mus musculus with 13 samples.

Results

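This account covers 10 genes of muscle wasting: the ubiquitin ligase genes Fbxo32, Trim63, Fbxo30, Fbxo31 and Fbxo21, the transcription factor genes Foxo1, Foxo3 and Foxo4, and Eif4ebp1 and Depp1, which FOXO factors are known to induce. They were taken by symbol, not by a cut on their values, although earlier results of these data were known at the choice. All 10 were in the deposited table of 14911 genes. Each had at least 43 reads in every library. The 10 did not move in a single direction. Eif4ebp1, Fbxo30 and Fbxo32 were higher in dexamethasone muscle, Foxo1, Fbxo21 and Depp1 were lower, and Trim63, Fbxo31, Foxo3 and Foxo4 did not pass the test. The calls of Fbxo32 and Depp1 were near the threshold and held in 14 and 12 of 28 alternative analyses.

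Skeletal muscle loses mass when proteins are broken down faster than they are made, and ubiquitin ligases choose the proteins to be destroyed by attaching ubiquitin to them. Fbxo32 encodes atrogin-1 and Trim63 encodes MuRF1, the ligases best known from wasting by fasting, denervation and glucocorticoids, the steroid hormones that dexamethasone imitates. Insulin-like growth factor signals through PI3K and AKT, and AKT phosphorylates FOXO factors and keeps them out of the nucleus. When that signal weakens, FOXO factors enter the nucleus and switch on Fbxo32, Trim63, autophagy genes and their own feedback genes. The glucocorticoid receptor and FOXO1 are known to act together at the Trim63 promoter.

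All mice were female C57BL/6, and each had cardiotoxin, a snake venom toxin that kills muscle fibres, injected into the hamstring at 0.32 mg/kg. The saline group (4 mice, numbered 1, 2, 3 and 5) was injected with saline into the abdomen once a day, and the dexamethasone group (9 mice) with dexamethasone at 10 mg/kg by the same route. The whole hamstring was taken on day 4, so each library is 1 mouse and messenger RNA comes from fibres and from every other cell in the tissue. The submitters left out a further saline mouse, the only one in which bone formed, whereas every dexamethasone mouse formed bone. The drug and the presence of bone therefore cannot be told apart here, and the labels used here name neither an age nor a batch.

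Libraries held 25531487 to 34942266 reads. The values are log2 CPM, read counts scaled to an effective size of each library, and a change is the dexamethasone mean minus the saline mean on that scale. The effective size was 0.8765 to 1.0013 times the reads in saline libraries, lowest in library 1. In dexamethasone libraries it was 0.98963 to 1.1006 times the reads. An adjusted p is from limma with Benjamini-Hochberg adjustment over all 14911 genes, with a threshold of 0.05. In bulk tissue, fewer cells of a type and less RNA per cell cannot be told apart. Summed over 20 markers, mature fibre RNA was at 168200 to 251490 CPM in saline and 115530 to 170170 in dexamethasone libraries, with 9 markers lower and 0 higher. The sum of 12 markers of regenerating fibres and myoblasts was 14336 to 14747 CPM against 7946 to 9759, without overlap, although 3 of the 12 were higher and 3 lower. That sum leans on abundant markers such as Actc1, at a mean of 12.2 log2 CPM in saline and 9.74 in dexamethasone libraries. All 11 measured lymphocyte markers were lower, at 43.2 to 62.3 CPM in sum against 5.95 to 18.4, and of 12 macrophage markers 4 were higher and 1 lower, with sums that overlapped, at 2462 to 3624 against 2923 to 3689. Of 6 adipocyte markers 5 were higher and 0 lower, at 458 to 764 CPM in sum against 588 to 1278. Fibroblast markers numbered 1 higher and 3 lower of 10, and endothelial markers 0 higher and 1 lower of 6. Without dexamethasone library 4 the endothelial counts were 0 and 3, and the macrophage counts 4 and 0. Over all genes 48.1% passed, 25.2% higher and 22.9% lower. The shares of mature fibre (45%), regenerating fibre (50%), macrophage (41.7%) and fibroblast markers (40%) were near that. No marker was at 0 reads in any library, and the part of cell composition in the results was not tested except by the fibre covariate named below.

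Dexamethasone library 4 stood apart in these genes. It held the top value of the group for 8 of the 10 and the bottom value for Foxo4, whereas over all 14911 genes it was highest for 17.5% and lowest for 16.6%. It was also highest for 12 of 14 glucocorticoid target genes, and its lymphocyte sum was the lowest and its macrophage sum the highest of the 9. Its mature fibre sum of 156490 CPM had rank 4 of 9, and its 28035973 reads lay within the range of the others. Saline library 1 was the highest of 4 for 8 of the 10 genes, against 27.8% of all genes, and also had the largest fibre sum. The change of each of the 10 genes, and the counts of each list, are therefore given with and without dexamethasone library 4.

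RefSeq promoters on GRCm38.p6, from 250 bases before to 50 after the transcription start, were found for 7 of the 10 genes; Fbxo32, Foxo4 and Eif4ebp1 are named only. They were searched on both strands for the FOXO core GTAAACA, for AGAACA, the hexamer bound by a glucocorticoid receptor monomer, and for CAGCTG, an E-box of the type bound by MyoD. Of 32851 mouse promoters of the same length, 3.65% held the FOXO core, 19.0% the hexamer and 16.3% this E-box. Trim63 was the only one of the 7 with a FOXO core, and its core at -194 lay directly after a receptor hexamer at -200, with the E-box at -72. Depp1 held an E-box at -132 and neither of the others. Foxo1, Foxo3, Fbxo21, Fbxo30 and Fbxo31 held none of the 3. Below, the Trim63 window (chr4:134314870-134315169) is shown for its adjoining matches, Depp1 (chr6:116650434-116650733) as the gene with the widest spread between libraries, and Fbxo30 (chr10:11281337-11281636) as the ligase gene with the steadiest rise. The Fbxo30 window lies inside the gene span printed further on, since the transcription start of the promoter table is downstream of the gene's first base. All 3 are on the plus strand, and capitals mark the motif matches.
Trim63: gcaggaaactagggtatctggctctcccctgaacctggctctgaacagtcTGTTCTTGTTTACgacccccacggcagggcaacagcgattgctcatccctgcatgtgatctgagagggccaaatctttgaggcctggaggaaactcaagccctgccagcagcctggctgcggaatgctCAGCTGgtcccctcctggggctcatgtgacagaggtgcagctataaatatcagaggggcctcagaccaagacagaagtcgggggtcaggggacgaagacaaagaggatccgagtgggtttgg
Depp1: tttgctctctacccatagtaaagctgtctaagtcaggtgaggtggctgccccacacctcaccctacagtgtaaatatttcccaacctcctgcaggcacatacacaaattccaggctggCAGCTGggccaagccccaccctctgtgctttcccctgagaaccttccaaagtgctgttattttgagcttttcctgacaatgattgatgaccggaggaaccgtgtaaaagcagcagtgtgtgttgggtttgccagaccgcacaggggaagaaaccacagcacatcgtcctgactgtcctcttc
Fbxo30: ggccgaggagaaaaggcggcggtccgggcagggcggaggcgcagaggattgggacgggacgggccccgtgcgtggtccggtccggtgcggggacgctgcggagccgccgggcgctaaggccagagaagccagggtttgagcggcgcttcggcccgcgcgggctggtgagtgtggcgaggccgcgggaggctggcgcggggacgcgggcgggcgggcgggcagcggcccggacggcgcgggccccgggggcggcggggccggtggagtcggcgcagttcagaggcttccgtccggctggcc
These windows also differed in base composition, with 57% G and C in Trim63, 51.7% in Depp1 and 79.7% in Fbxo30, against a median of 52.7% over all promoters. A palindrome of both receptor hexamers set 3 bases apart was in none of the 7 and in 3 of the 32851. A match is a string of letters and says nothing of binding in this tissue.

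Of the 10 genes, 6 passed the test (60%), 3 higher and 3 lower, with a median change of 0.04 on the log2 scale. Over all genes 48.1% passed, 25.2% higher and 22.9% lower, with a median of 0.0071, so the share among the 10 was near that of the whole table. The groups did not overlap in 2 of the 10, Eif4ebp1 and Fbxo30, against 25.8% of all genes. Without dexamethasone library 4, when 47.7% of all genes passed, 3 of the 10 were higher and 4 lower, Foxo3 being the addition.

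**Figure D1:**
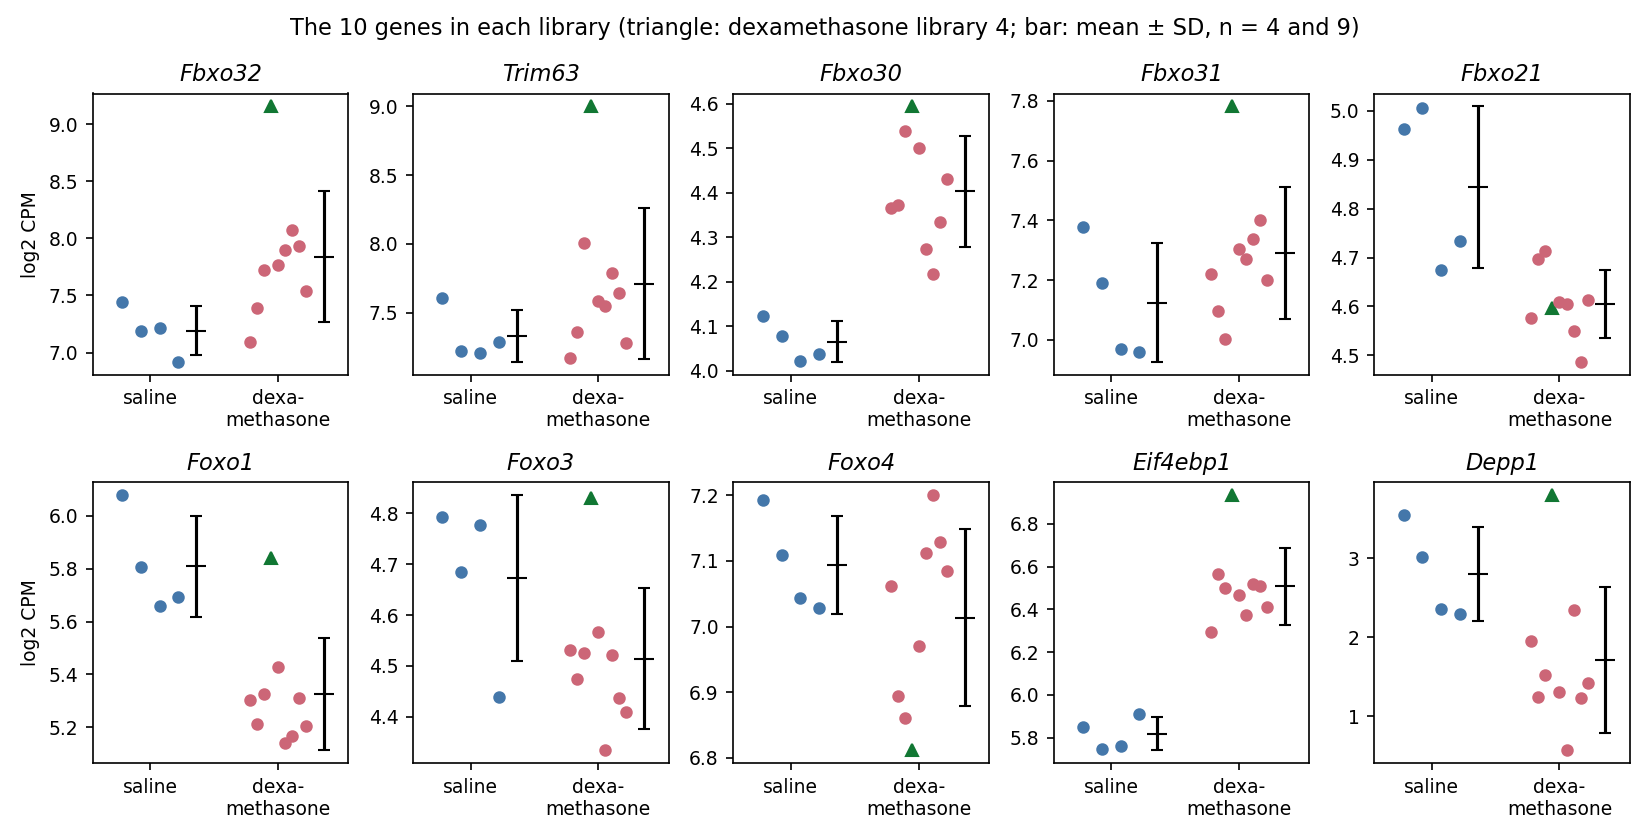
Level of each gene in each library (vertical axes, log2 CPM, each with its own range) in saline (blue, n = 4) and dexamethasone (red, n = 9), with bars for mean ± SD. The triangle is dexamethasone library 4, which lies at the top of its group in 8 panels and at the bottom for Foxo4, and only Fbxo30 and Eif4ebp1 have groups that do not overlap.

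Fbxo32 (Entrez 67731, mm10 chr15:58175879-58214892) encodes the F-box subunit that brings MyoD and translation initiation factors to an SCF ligase. It stood at 7.45, 7.19, 7.21 and 6.92 log2 CPM in saline libraries 1, 2, 3 and 5. Dexamethasone libraries ran from 7.09 to 9.16 with a median of 7.76. Of the 9, 7 lay above every saline library, while libraries 1 and 2 lay inside the saline range. Fbxo32 rose 1.57-fold, a log2 change of 0.65 ± 0.25 (SE; adjusted p 0.0452, limma). The exact two-sided permutation test of the same means gave p = 0.0224, where the smallest p that 4 against 9 libraries can give is 0.0028.

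The size and the call of Fbxo32 both leaned on single libraries. Library 4, at 9.16, was 2.79-fold above the mean of the other 8, whose highest was 8.07. Without it the change was 0.49 ± 0.15 (SE; adjusted p 0.0139, limma), smaller and yet further past the threshold, since the SD of the dexamethasone group went from 0.58 to 0.32. The call ended when saline library 2, 3 or 5 or dexamethasone library 3, 5, 6, 7 or 8 was left out, with changes of 0.56 to 0.67 and adjusted p of 0.0538 to 0.122 (limma). In the authors' deposited table the log2 fold change of Fbxo32 was also 0.65, with an adjusted p of 0.0668.

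Trim63 (Entrez 433766, chr4:134315120-134329629) encodes the RING ligase MuRF1, which marks myosin and other thick filament proteins. Its saline libraries 1, 2, 3 and 5 were at 7.61, 7.22, 7.21 and 7.29 log2 CPM. The dexamethasone libraries went from 7.17 to 9.00, with a median of 7.58. The groups overlapped: 4 dexamethasone libraries were above every saline library, and library 1 was below them all. The change of 0.38 ± 0.24 (SE) did not pass (adjusted p 0.208, limma), and its 95% interval of -0.13 to 0.89 holds both no change and a change as large as that of Fbxo32. Without library 4, which was 2.74-fold above the mean of the others, it was 0.22 with an interval of -0.057 to 0.49 (adjusted p 0.18, limma). Trim63 passed in 0 of 28 alternative analyses, with changes of 0.20 to 0.49. The difference between the changes of Fbxo32 and Trim63 was not tested.

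Fbxo30 (Entrez 71865, chr10:11281330-11305750) encodes the F-box protein MUSA1, a wasting ligase held down by bone morphogenetic protein signalling in muscle. Its saline values were close together, at 4.12, 4.08, 4.02 and 4.04 log2 CPM in libraries 1, 2, 3 and 5. The 9 dexamethasone values lay between 4.22 and 4.59 around a median of 4.37, so all 9 were above every saline value. Fbxo30 rose 1.26-fold, a log2 change of 0.34 ± 0.068 (SE; adjusted p 0.00075, limma; exact permutation p = 0.0028). The rise was small but steady: it passed in all 28 alternatives, at 0.27 to 0.38, and was 0.31 without library 4 (adjusted p 0.000893, limma).

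Fbxo31 (Entrez 76454, chr8:121549443-121578864) encodes an F-box protein known for destroying cyclin D1. In saline libraries 1, 2, 3 and 5 it was at 7.38, 7.19, 6.97 and 6.96 log2 CPM. Dexamethasone values ran from 7.001 to 7.78 with a median of 7.27, and only 2 of the 9 were above the highest saline value. The change of 0.17 ± 0.11 (SE) did not pass (adjusted p 0.239, limma; 95% interval -0.073 to 0.40), nor did 0.10 without library 4 (adjusted p 0.325, limma). With the mean of the fibre markers as a covariate it was 0.44 and passed (adjusted p 0.0309, limma).

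Fbxo21 (Entrez 231670, chr5:117976770-118010198), another F-box gene of the FOXO wasting programme, went the other way. Its saline values were 4.96, 5.01, 4.67 and 4.73 log2 CPM in libraries 1, 2, 3 and 5. Dexamethasone libraries ran from 4.49 to 4.71 with a median of 4.61, and 7 of the 9 were below every saline library. Fbxo21 was 1.18-fold lower, a log2 change of -0.24 ± 0.064 (SE; adjusted p 0.00616, limma; exact permutation p = 0.0112). Library 4 was in the middle of its group, at 4.60, and the change was -0.24 without it too. The call ended with the fibre marker covariate, at -0.23 (adjusted p 0.0915, limma). Among genes whose mean log2 CPM was 1 or more, its SD of 0.069 between dexamethasone libraries was at percentile 14.3, whereas those of Fbxo32 and Trim63 were at percentiles 99.1 and 99.0.

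Foxo1 (Entrez 56458, chr3:52268337-52350109) encodes the FOXO factor most tied to Trim63 and to glucocorticoid-induced wasting. It was at 6.08, 5.81, 5.66 and 5.69 log2 CPM in saline libraries 1, 2, 3 and 5. In dexamethasone libraries it ran from 5.14 to 5.84 around a median of 5.30. All of them except library 4 were below every saline library, and library 4, at 5.84, lay inside the saline range. Foxo1 was 1.40-fold lower, with a log2 change of -0.48 ± 0.11 (SE; adjusted p 0.00185, limma; exact permutation p = 0.0112). Without library 4 it was 1.46-fold lower (adjusted p 3.32e-05, limma), and the dexamethasone SD went from 0.21 to 0.097. The call ended with the fibre marker mean as a covariate, at -0.35 (adjusted p 0.111, limma), but held with that covariate and without library 4, at -0.43 (adjusted p 0.00614, limma).

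Foxo3 (Entrez 56484, chr10:42181845-42276695) encodes the factor known to drive Fbxo32 and autophagy genes together. Saline libraries 1, 2, 3 and 5 were at 4.79, 4.68, 4.78 and 4.44 log2 CPM, number 5 standing lowest. Dexamethasone libraries ran from 4.33 to 4.83 with a median of 4.52, and library 4 was above every saline library. The change of -0.16 ± 0.082 (SE) did not pass (adjusted p 0.125, limma; 95% interval -0.33 to 0.016). It passed at -0.20 without dexamethasone library 4 and at -0.24 without saline library 5, each with an adjusted p of 0.0258 (limma).

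Foxo4 (Entrez 54601, chrX:101254261-101260873), a further FOXO factor of muscle, did not pass the test. Its saline values were 7.19, 7.11, 7.04 and 7.03 log2 CPM in libraries 1, 2, 3 and 5. Dexamethasone values ran from 6.81 to 7.20 around a median of 7.06, with 4 below and 1 above the saline range. The change was -0.08 ± 0.069 (SE; adjusted p 0.359, limma), with a 95% interval of -0.23 to 0.066, and -0.05 without library 4 (adjusted p 0.506, limma). Library 4 was here the lowest of the 9. The remaining family member Foxo6, named after its values were seen, was lower by a log2 change of -0.55 (adjusted p 0.0188, limma), and by -0.43 without library 4 (adjusted p 0.00146, limma).

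Eif4ebp1 (Entrez 13685, chr8:27260327-27275656) encodes 4E-BP1, which holds back cap-dependent translation until mTOR phosphorylates it. It stood at 5.85, 5.75, 5.76 and 5.91 log2 CPM in saline libraries 1, 2, 3 and 5. Dexamethasone libraries ran from 6.29 to 6.94 with a median of 6.50. Every dexamethasone library was above every saline library, with a gap between 5.91 and 6.29. Eif4ebp1 rose 1.61-fold, a log2 change of 0.69 ± 0.086 (SE; adjusted p 1.22e-05, limma; exact permutation p = 0.0028), the smallest adjusted p of the 10 genes. Without library 4 the change was 0.64 (adjusted p 4.80e-07, limma), and over all 28 alternatives it passed at 0.57 to 0.72.

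Depp1 (Entrez 213393, chr6:116650684-116652847) encodes a small protein linked to autophagy whose gene FOXO factors switch on. It had few reads, from 43 to 390 in a library. Saline libraries 1, 2, 3 and 5 were at 3.54, 3.01, 2.36 and 2.29 log2 CPM, in the same order as their fibre sums. Fbxo31 and Foxo4 had that order too. Dexamethasone libraries ran from 0.57 to 3.80 with a median of 1.43, and 7 of the 9 were below every saline library. Library 4, at 3.80, was above every saline library and 5.10-fold above the mean of the other 8. Depp1 was 2.13-fold lower, with a log2 change of -1.09 ± 0.43 (SE; adjusted p 0.0465, limma), and the exact permutation test gave p = 0.0587.

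Without library 4 the fall of Depp1 was 2.55-fold, at a log2 change of -1.35 ± 0.28 (SE; adjusted p 0.00113, limma). Its call ended when saline library 1, 2 or 3 or dexamethasone library 1, 2, 3, 5, 6, 8 or 9 was left out, with changes of -1.24 to -0.84 and adjusted p of 0.0506 to 0.159 (limma). With the fibre marker mean as a covariate it was -0.29 (adjusted p 0.75, limma). That mean differed between the groups, so the covariate shares part of its variation with the treatment.

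**Figure D2:**
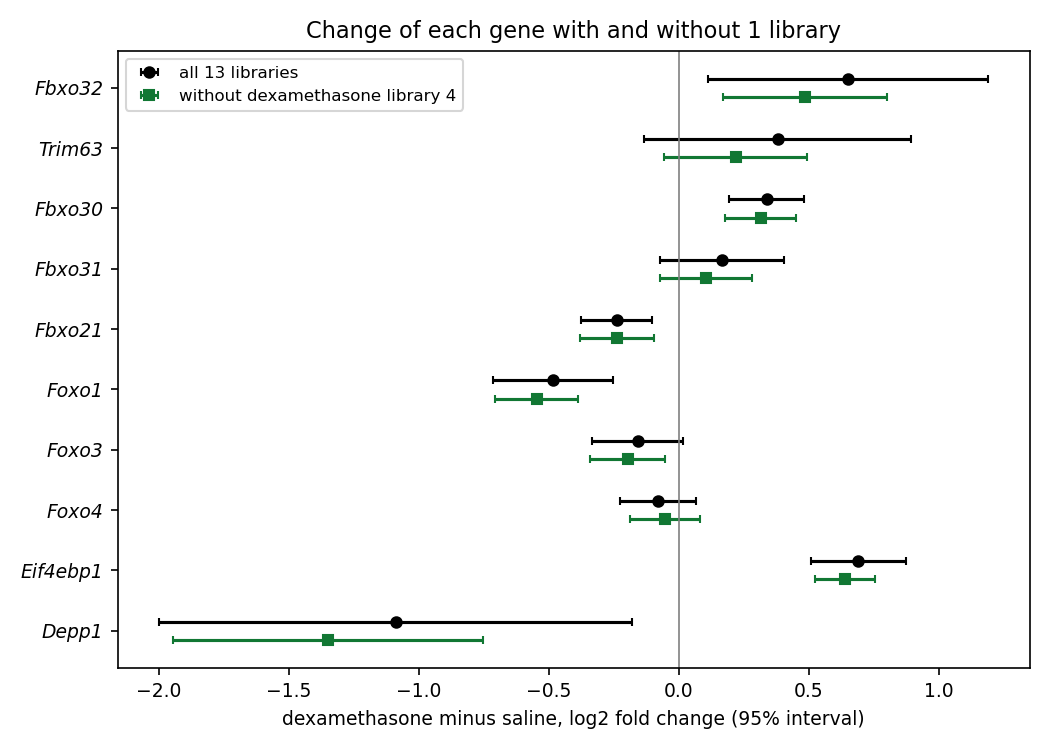
Log2 fold change of dexamethasone over saline for each gene (horizontal axis) with its 95% interval, from all 13 libraries (black circles) and without dexamethasone library 4 (green squares). Leaving the library out narrows the intervals of Fbxo32, Trim63, Foxo1 and Depp1 and moves the interval of Foxo3 from -0.33 to 0.016 to one that lies below 0.

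Levels can be compared between genes only per length, here as log2 CPM per kilobase of exon. The length counts every annotated exon of a gene, whether or not it is used in this muscle, so the order below holds for that length only. Overlap here is of the ranges of 2 genes over the libraries of a group, not within a library. In saline muscle Trim63 was the most abundant, at 5.82 ± 0.19 (SD, n = 4), followed by Foxo4 at 5.29 ± 0.075, with no overlap of their libraries. Eif4ebp1 at 4.68 ± 0.077 and Fbxo31 at 4.67 ± 0.20 did not differ beyond their spread. Fbxo32 at 4.39 ± 0.22 overlapped both in range but was below both within every saline library. Foxo1 followed at 2.69 ± 0.19 and lay just above Fbxo21 at 2.37 ± 0.17, their libraries meeting at 2.54 without overlap. Depp1, at 2.36 ± 0.59, overlapped both. Foxo3 at 1.75 ± 0.16 and Fbxo30 at 1.69 ± 0.046 were the least abundant and overlapped. Foxo4 was thus the most abundant of the 3 FOXO transcripts in every saline library.

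In dexamethasone muscle Trim63 stayed first, at 6.20 ± 0.55 log2 CPM per kilobase (SD, n = 9). Eif4ebp1 came next at 5.37 ± 0.18, and its range overlapped those of Trim63 and of Foxo4 at 5.21 ± 0.13. Within every dexamethasone library, however, Trim63 was above Eif4ebp1. Fbxo32 was at 5.04 ± 0.58 and Fbxo31 at 4.84 ± 0.22, which overlapped. Foxo1 at 2.21 ± 0.21, Fbxo21 at 2.13 ± 0.069 and Fbxo30 at 2.03 ± 0.12 overlapped, whereas Fbxo30 had been last in saline muscle. Within every dexamethasone library, Foxo1 was still above Fbxo30. Foxo3 at 1.59 ± 0.14 and Depp1 at 1.27 ± 0.92 were last.

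Among the 9 dexamethasone libraries, 45 pairs of the 10 genes were compared, with exact permutation p adjusted over the 45 (Benjamini-Hochberg). By Pearson's r 5 pairs passed, each with an adjusted p of 0.0393, and 0 passed by Spearman's rho, where the smallest adjusted p was 0.0913. Fbxo32 and Trim63 had the highest r, 0.935 (exact permutation p = 0.0017), with a rho of 0.80 (exact permutation p = 0.0138). Without library 4 their r was 0.739, and without the 2 libraries farthest from the median of Fbxo32 it was 0.584. Foxo1 and Foxo3 had an r of 0.923, which was 0.679 without library 4, and Foxo3 and Depp1 had 0.912 and 0.684. These 3 relations rest in part on library 4.

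The other two pairs involved Fbxo30. With Foxo4 its r was -0.860 and its rho -0.90, and r was -0.793 without library 4 and -0.678 without the 2 farthest libraries. With Foxo1 its r was 0.773, 0.725 without library 4 and 0.732 without the 2 farthest. Without library 4, 0 of the 45 pairs passed and 6 had an unadjusted p under 0.05, against 16 over all 9 libraries. Some pairs were stronger without that library. Fbxo31 with Fbxo21 then had the strongest r, -0.932 (adjusted exact permutation p 0.0592), against -0.551 over all 9. Fbxo21 with Foxo4 had -0.857 against -0.683, and Fbxo31 with Foxo4 had 0.819 against -0.095. No batch is given in the labels, so no relation could be computed within one, and the saline group has too few libraries for a correlation. Fibre content also varied between the dexamethasone libraries, and its part in these relations was not tested.

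**Figure D3:**
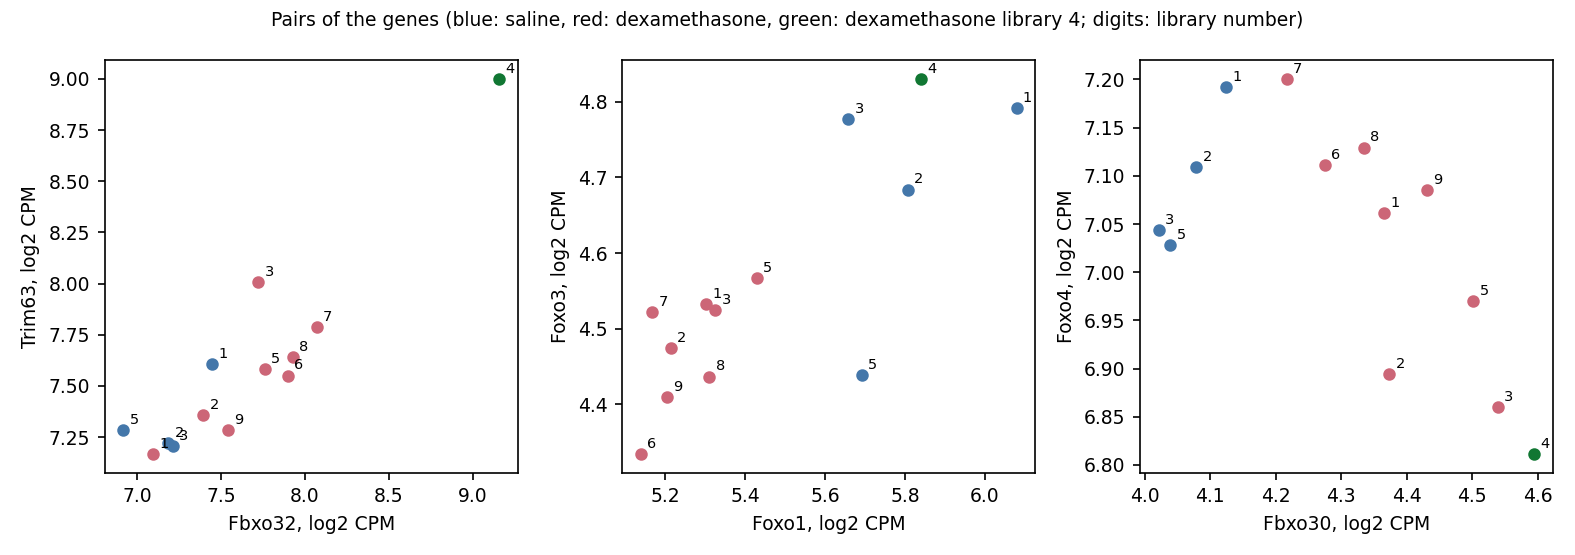
Levels of 3 pairs of the genes in every library (both axes log2 CPM; saline blue, dexamethasone red, dexamethasone library 4 green, digits give the library number). Library 4 lies far from the other red points for Fbxo32 with Trim63 and for Foxo1 with Foxo3, and at the end of a series of points for Fbxo30 with Foxo4, whose r over the 9 dexamethasone libraries was -0.860.

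The genes most like 4 of the 10 across the 9 dexamethasone libraries were sought among 12258 genes with a mean log2 CPM of 1 or more, as a description with no test. Trim63 was closest to Arnt, which encodes a partner of hypoxia and dioxin receptors (r = 0.981), to Umad1 and to Pdk4, a kinase that blocks glucose oxidation (r = 0.974 for both). Fbxo32 was close to Zfp959 (r = 0.971) and to Retreg1, a receptor for autophagy of the endoplasmic reticulum (r = 0.962). Foxo1 was close to Ncf1, of the phagocyte oxidase (r = 0.971), and to Txn1, thioredoxin (r = 0.957). Eif4ebp1 was closest to Ccl6, a macrophage chemokine (r = 0.970), Lyve1, a hyaluronan receptor (r = 0.949), and Pon2 (r = 0.946).

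Library 4 was above the other 8 for each of these 10 genes, and shared depth and composition also enter such an r. Without it Umad1 and Arnt still had ranks 4 and 6 of 12258 for Trim63, with r of 0.930 and 0.923, and Pdk4 had rank 17. For Fbxo32, Zfp959 and Retreg1 had ranks 34 and 42. For Eif4ebp1, Lyve1 had rank 291, with an r of 0.733.

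Lists of other genes of the same pathway were read from the same comparison, where 48.1% of all genes passed, and 47.7% without library 4. Most genes named from them were picked for the smallest adjusted p of their list, so a lack of overlap in them is no separate result. Over all genes the groups did not overlap in 25.8%. Of 35 other ligases, ubiquitin genes and enzymes that load or remove ubiquitin, 7 were higher and 9 lower (45.7%), with a median change of -0.01, and the counts were the same without library 4. Znrf1, a ligase that acts on AKT, was 1.27-fold lower, and Stub1, a ligase that works with chaperones, 1.31-fold lower. Usp19, a deubiquitinase of muscle wasting, was 1.20-fold lower, while Usp14, which trims ubiquitin at the proteasome, rose 1.26-fold. In each of these 4, named for their small adjusted p, the groups did not overlap. Trim55, the MuRF2 relative of Trim63, was lower at -0.40 (adjusted p 0.000822, limma), whereas Trim54, which encodes MuRF3, had -0.05 (adjusted p 0.713, limma); this pair was named with the values already seen. Cul1 and Skp1, the SCF core that F-box proteins plug into, had changes of 0.06 and 0.04 and did not pass (adjusted p 0.229 and 0.565, limma), and were likewise named afterwards.

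Autophagy genes that FOXO factors are known to control gave 4 higher and 2 lower of 20 (30%), also without library 4, with a median of 0.02. This share was below the 48.1% of all genes, and quantile normalisation gave 5 higher and 4 lower. Map1lc3a, a coat protein of autophagosomes, was 1.35-fold lower. Atg7, of the enzymes that lipidate that coat, rose 1.19-fold, and Bnip3, a mitochondrial autophagy receptor, rose 1.27-fold. The groups did not overlap for Map1lc3a and Atg7, and they did for Bnip3.

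Of 24 metabolic and stress genes under FOXO, 7 were higher and 6 lower (54.2%, near the 48.1% of all genes), with a median of -0.04. Without library 4 there were 6 and 7. Ppargc1a, the coactivator of mitochondrial genes, was 2.01-fold lower, at 4.60 to 5.23 log2 CPM in saline and 3.69 to 4.20 in dexamethasone libraries. Bcl6, a repressor, was 1.47-fold lower and Sesn1, a stress-induced inhibitor of mTOR signalling, 1.33-fold lower, while Gadd45a, a wasting gene of denervated and unused muscle, rose 1.31-fold. The mature fibre sums were at most 170170 CPM in dexamethasone and at least 168200 in saline libraries. The part of fibre content in these changes was tested only through the covariate. With it 3 genes of this list were lower, and 4005 genes of the whole table passed instead of 7173.

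Of 32 genes of PI3K, AKT and mTOR signalling, 11 were higher and 3 lower (43.8%, near the 48.1% of all genes), with a median of 0.01, and quantile normalisation gave 9 higher and 5 lower. Igf1r, the receptor upstream of AKT, rose 1.37-fold with no overlap. Xpo1, the exporter that carries FOXO factors out of the nucleus, rose 1.58-fold with no overlap. Deptor, an inhibitor of mTOR, also rose 1.58-fold, whereas Ddit4, another inhibitor of mTOR that glucocorticoids are known to induce, was 1.73-fold lower. Ddit4 was at 5.20 log2 CPM in library 4 and at most 4.33 in the other 8, and without that library its change was -0.90. The list was 10 higher and 3 lower without library 4.

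Of 14 glucocorticoid target genes, 5 were higher and 4 lower (64.3%, against 48.1% of all genes), or 6 and 4 without library 4 (71.4%, against 47.7%). Angptl4, a lipase inhibitor, rose 3.42-fold, Mt2 and Mt1, metallothioneins, 3.99- and 3.00-fold, and Errfi1, a brake on growth factor receptors, 1.96-fold. Tsc22d3, the glucocorticoid-induced leucine zipper gene, was 1.67-fold lower. The largest change of the list was a fall, that of the arrestin-like gene Arrdc2 at -2.19 (adjusted p 0.000799, limma; -2.51 without library 4), and Zbtb16, a zinc finger factor, was lower at -1.06 (adjusted p 0.00598, limma). These 2 genes were named with their values already seen. Nr3c1, the receptor itself, was 1.25-fold lower, and library 4 was its lowest dexamethasone library at 6.15 log2 CPM. Fkbp5, a receptor cochaperone, was at 7.92 log2 CPM in library 4 and 6.02 to 6.18 in the other 8, against 5.72 to 6.01 in saline. Its groups did not overlap, yet its change of 0.46 did not pass with library 4 (adjusted p 0.158, limma), and 0.26 did without it (adjusted p 0.00123, limma).

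Pdk4 and Klf15, genes of fasting metabolism that FOXO factors and glucocorticoids are both known to induce, were also highest in library 4. Pdk4 was at 9.67 log2 CPM in library 4 and 6.64 to 7.61 in the other 8, against 7.39 to 7.89 in saline, so its change of -0.14 (adjusted p 0.783, limma) became -0.41 without library 4 (adjusted p 0.0448, limma). Klf15, a transcription factor, was at 5.46 in library 4 and 4.25 to 5.02 in the others, against 4.84 to 5.47 in saline. Its change of -0.36 (adjusted p 0.0973, limma) was -0.45 without library 4 (adjusted p 0.0144, limma).

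**Figure D4:**
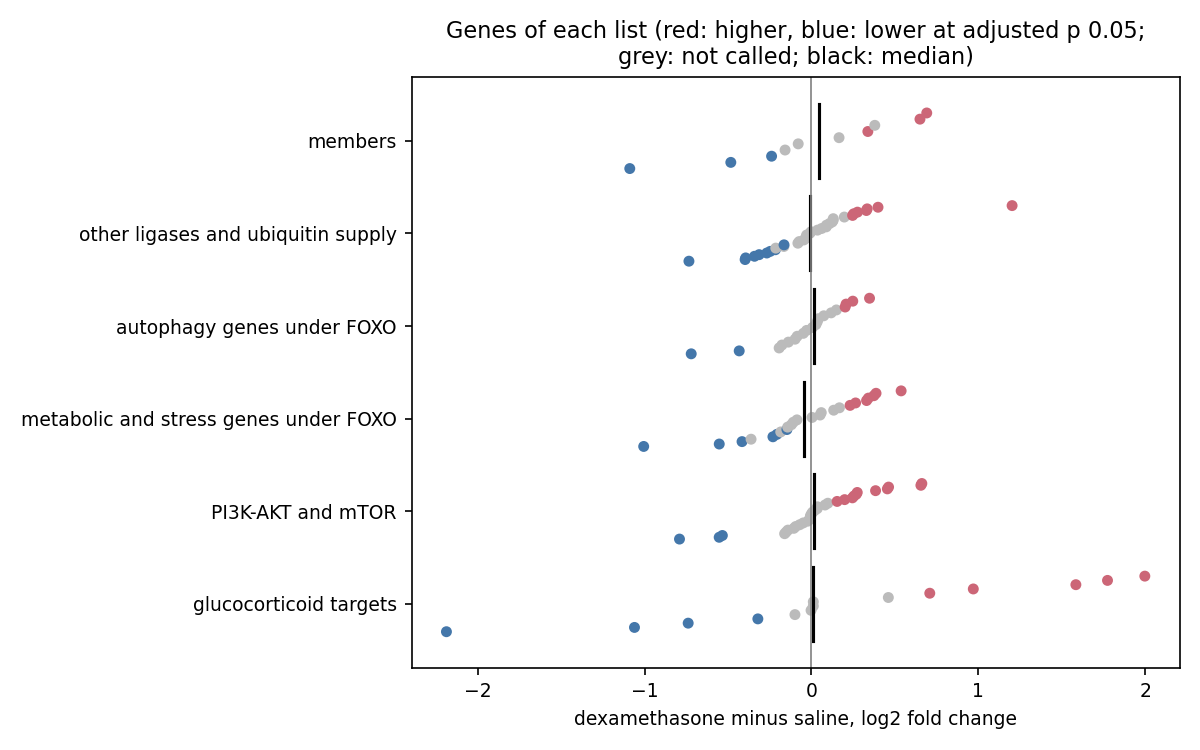
Log2 fold change of dexamethasone over saline (horizontal axis) for the 10 genes (top row, labelled members) and for each list, 1 point per gene, red if higher and blue if lower at an adjusted p under 0.05, grey if not, with a black bar at the list's median. The points of every list lie on both sides of 0, and the medians range from -0.04 to 0.04.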

How the data were processed

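Per the labels' protocols, polyadenylated RNA was made into stranded libraries. The submitters' processing notes name featureCounts 2.0.1, the build mm10 and limma 3.50.1. Aligner, annotation and strand setting are not given in the sources at hand. For 14911 genes the authors deposited log2 CPM values, normalised without the excluded saline mouse, and log2 fold changes and adjusted p-values of their own comparison, per the file headers. A table of 14970 genes normalised with that mouse was an alternative, and 1 value column, that of the mouse, was not used. Whole reads came back from 100% of the deposited log2 values within 0.01 of a whole number, with an offset of 0.5 reads.

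Groups were compared with limma 3.58.1 under R 4.3.3, fitting all 13 libraries and all genes, two-sided, with variances moderated along the intensity trend. The exact permutation test of the groups ran in R. Correlations and their exact permutation p were computed in Python, with ranks and adjustment from scipy 1.17.1, and figures used matplotlib 3.10.9. Fold changes are differences of mean log2 CPM. Lengths are the summed exons of GENCODE M21, coordinates and promoters are from RefSeq. The steps were tested on simulated data. The simulated reads for limma held no library that stands apart, so the effect of dexamethasone library 4 was not tested there. The 10 genes, the lists and the tests were chosen with earlier results of these data known. Named beyond the 10 were from each list the up to 4 genes with the smallest adjusted p whose mean log2 CPM was 0 or more, the 3 genes of highest r with each of 4 genes, and Fkbp5, Tsc22d3, Klf15, Pdk4 and Nr3c1; a few genes picked by this rule are not reported here. Alternatives were the other table, log2 of CPM plus 1, a filter at mean log2 CPM of 1, median centring, quantile normalisation, no trend, robust priors, library weights, voom, the number block, the fibre covariate, permutation and each library left out. Voom with library weights, and the covariate without dexamethasone library 4, were added after seeing the data.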

Additional observations from a re-analysis of the deposited data

Results flagged for a closer look

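In 5 of the 20 groups checked (10 genes in each of the 2 treatments), a library lay far from the rest, where chance flags about 5% of groups, and in all 5 it was the highest library of the dexamethasone group, number 4. The measure is the gap to the nearest library as a share of the range of the group, judged against the 95% critical value of Dixon for 9 libraries. Foxo1 had a share of 0.586, with 5.84 log2 CPM in that library and 5.43 in the next. Eif4ebp1 had 0.58, with 6.94 and 6.56. Trim63 had 0.542, with 9.00 and 8.01. Foxo3 had 0.531, with 4.83 and 4.57. Fbxo32 had 0.526, with 9.16 and 8.07. These genes come from the same mouse, so the 5 are not independent.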

How the results depend on the processing

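Of the 10 genes, Fbxo30 and Eif4ebp1 passed in all 28 alternatives, Foxo1 in 27, Fbxo21 in 24, Fbxo32 in 14, Depp1 in 12, Foxo3 in 4, Fbxo31 in 2, and Trim63 and Foxo4 in 0. No call changed direction. Genes called over the whole table were 7173, but 4005 with the fibre marker mean as a covariate and 4098 with that covariate and dexamethasone library 4 left out. Of the 10, 3 were lower, but 0 with the covariate (2 at an unadjusted p under 0.05, limma) and 1, Foxo1, with it and without library 4. The call of Fbxo32 also ended with median centring (adjusted p 0.0551), no trend (0.0734), robust priors (0.0766) and the covariate (a change of 0.91, adjusted p 0.0866, limma), but held with the covariate and without library 4 (0.71, adjusted p 0.0207, limma). That of Depp1 ended with log2 of CPM plus 1, at -0.87 (adjusted p 0.0535, limma), no trend (0.0728), robust priors (0.0719) and the permutation test (0.108). The related pairs went from 5 to 0 without library 4.

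Same-numbered mice of the 2 groups correlated at -0.013, -0.07, -0.031 and 0.119 in their deviations from the group mean. Differently numbered mice were not compared, so whether the numbers pair the groups was not settled. On the 8 libraries numbered in both groups, the fit with the number as a block called 5959 genes and, of the 10, 2 higher and 2 lower, with Fbxo32 at 0.30 (adjusted p 0.161) and Fbxo21 at -0.20 (adjusted p 0.10). Without the block 6124 genes passed on these 8 libraries, and neither Fbxo32 (adjusted p 0.121) nor Fbxo21 (adjusted p 0.0881) did.

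In the lists, both covariate fits gave 13 higher ligases instead of 7. With the covariate alone, 4 ligases, 1 autophagy gene, 3 metabolic genes, 1 gene of PI3K and mTOR signalling and 0 glucocorticoid targets were lower, instead of 9, 2, 6, 3 and 4, and 6 signalling genes were higher instead of 11. With the covariate and without library 4, the same counts of lower genes were 5, 2, 3, 2 and 3, and 7 signalling genes were higher. Calls over all genes fell too, from 7173 to 4005 with the covariate and to 4098 with it and without library 4. On the 8 libraries, 1 autophagy gene and 4 metabolic genes were higher with the block, and 1 and 3 without it, instead of 4 and 7. Depp1, with 43 reads in its lowest library, is the gene that depth limits most.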
